A study of Mus musculus with 2 samples.

Results

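The 9 genes described here were taken by symbol from the 32285 genes of the count tables: the FOXO transcription factors Foxo1, Foxo3 and Foxo4, the sestrins Sesn1, Sesn2 and Sesn3, and Ddit4, Txnip and Tsc22d3. All 9 were in the tables. The set was drawn up as a pathway group by name, with earlier results of these data known. They were measured by single-cell RNA sequencing (10x Genomics 5′ assay) in cells sorted for eYFP from the upper body of mouse embryos at E13.5. Control embryos carried Isl1-Cre and the Cre reporter R26R-eYFP, and mutant embryos carried both alleles plus Pik3caH1047R, a Cre-dependent transgene for p110α with the activating H1047R change. Isl1-Cre acts in the cardiopharyngeal mesoderm and in other Isl1-expressing progenitors, so that endothelial cells (ECs), muscle, mesenchyme, neurons and epithelium all carry the label and, in mutants, the transgene. Each genotype was 1 library of 3 pooled embryos. No test between genotypes was therefore possible, and every interval below is a 95% interval for counting error alone, which leaves out the spread between embryos and libraries.

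FOXO factors sit at the end of the PI3K pathway. AKT phosphorylates them, the YWHA adaptor proteins hold the phosphorylated factors in the cytoplasm, and in the absence of this phosphorylation they enter the nucleus and activate genes of growth arrest, metabolism and stress resistance. This control acts on the protein, so transcript levels show how much of each factor could be made and not where it was. Several of the other genes restrain mTORC1, the growth-promoting kinase complex downstream of AKT: sestrins bind the GATOR2 complex on the amino acid branch, and Ddit4 (REDD1), which is induced by hypoxia and by the stress factor ATF4, acts through the TSC complex. Txnip is an arrestin that binds thioredoxin and lowers glucose uptake, and it is transcribed under the glucose-responsive factors MondoA and ChREBP. Tsc22d3 (GILZ) is a leucine zipper protein induced by glucocorticoids and by FOXO factors.

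The promoters of Ddit4 and Txnip are shown because these were the genes with the largest difference in each direction. Both windows are RefSeq sequence of GRCm38.p6, 250 bases before to 50 bases after the transcription start, written along the gene's strand. The Ddit4 window lies at chr10:59951721-59952020 on the minus strand and the Txnip window at chr3:96557707-96558006 on the plus strand. Capitals mark the motifs that were searched on both strands: the FOXO element GTAAACA, the hypoxia core in its forms ACGTG and GCGTG, the E-box CACGTG, which contains ACGTG, and the carbohydrate response pair CACGAGNNNNNCACGAG.
Ddit4: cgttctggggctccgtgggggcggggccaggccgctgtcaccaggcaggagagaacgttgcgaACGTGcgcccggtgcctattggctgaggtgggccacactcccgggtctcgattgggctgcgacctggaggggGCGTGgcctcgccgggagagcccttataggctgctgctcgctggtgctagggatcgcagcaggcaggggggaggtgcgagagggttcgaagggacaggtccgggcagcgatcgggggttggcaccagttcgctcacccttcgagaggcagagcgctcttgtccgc
Txnip: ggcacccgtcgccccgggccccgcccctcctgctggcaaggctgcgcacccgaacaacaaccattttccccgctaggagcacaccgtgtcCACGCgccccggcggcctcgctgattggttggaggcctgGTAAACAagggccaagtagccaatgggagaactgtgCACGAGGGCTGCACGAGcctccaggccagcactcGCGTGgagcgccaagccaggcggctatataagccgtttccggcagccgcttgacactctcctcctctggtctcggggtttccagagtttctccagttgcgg
The Ddit4 window held ACGTG and GCGTG once each and no FOXO element. The Txnip window held 1 FOXO element, 121 bases before the start, 2 copies of GCGTG and the carbohydrate response pair, which began 85 bases before the start. Among 32851 mouse promoters of this length, 3.65% held the FOXO element, 19.6% held ACGTG, 32.4% held GCGTG and 7.15% held CACGTG, so the short motifs were common. The carbohydrate pair was searched in a single spelling, the one present in the Txnip window, and was found in 1 promoter, that of Txnip. Other spellings of the pair were not searched, so this count does not show how rare such elements are. Of the 9 genes, 8 had a promoter entry, and Foxo4 had none. Sesn1, with 2 entries, held a FOXO element in 1 of them. These matches describe letters in a window and not binding.

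The control library kept 2783 of 4505 deposited cells and the mutant library 3489 of 5357, with median depths of 20412 and 16839 UMIs. Cells were grouped without the 9 genes and named from marker genes, which gave 7 classes with at least 50 cells in each library. EC-like cells numbered 146 in the control and 698 in the mutant, and their 14 EC markers, among them Cdh5, Kdr and Tie1, summed to 6762 and 6624 CPM (UMIs per 1000000 UMIs of the class). Markers of 10 other cell types summed to between 3.14 and 304 CPM in the EC-like cells of either library. Pik3ca itself, whose count does not separate the transgene from the endogenous gene, was at 34.8 CPM in all control cells and 36.7 CPM in all mutant cells. Xist and 4 genes of the Y chromosome marked 95.5% of the control library as female-like and 0.0359% as male-like, whereas the mutant library was 33.6% female-like and 53.3% male-like. Sex and genotype thus differed together, and results were repeated on female-like cells of both libraries. The labels name the tissue as pharyngeal arch, and the mutant library also held 47 hepatoblast-like cells, where the control held 0. The 2 libraries shared 28 cell barcodes.

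In EC-like cells, 3 of the 9 genes, Ddit4, Sesn2 and Foxo3, were at least 1.5-fold higher in the mutant library, and 2 of 9, Txnip and Sesn1, were at least 1.5-fold lower. Over the 10904 genes with a mean of at least 5 CPM in these cells, 8.64% were that much higher and 12.7% that much lower. The median log2 ratio was 0.14 over the 9 genes and -0.09 over all genes. All 9 genes passed the limit of 5 CPM.

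Ddit4 showed the largest difference. It was at 51.8 CPM in control EC-like cells (interval 44.2 to 60.3) and at 405 CPM in mutant EC-like cells (394 to 416), from 165 and 5627 UMIs. The intervals lay far apart, and the log2 ratio was 2.97 (2.74 to 3.20). The other 6 classes were also higher in the mutant: 61.7 against 447 CPM in mesenchyme-like cells, 69.8 against 321 CPM in branchial muscle-like cells, 84.8 against 256 CPM in neuron-like cells and 112 against 761 CPM in epithelium-like cells. Cardiomyocyte-like cells had 23.1 and 94.7 CPM, and mesothelium-like cells 41.9 and 285 CPM. The ratio was thus smallest in neuron-like cells, at 1.59 (1.42 to 1.76), and the interval was above 0 in 7 of 7 classes. The order of the classes differed between libraries: epithelium-like cells were highest and cardiomyocyte-like cells lowest in both, but mesenchyme-like and EC-like cells came after neuron-like and branchial muscle-like cells in the control and before them in the mutant. The part of free RNA in the droplets was not measured. An exception lay outside the compared classes. A cluster of neural crest-like cells, with 53 control and 24 mutant cells, had 210 and 192 CPM of Ddit4, a log2 ratio of -0.13 (-0.51 to 0.24).

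**Figure D1:**
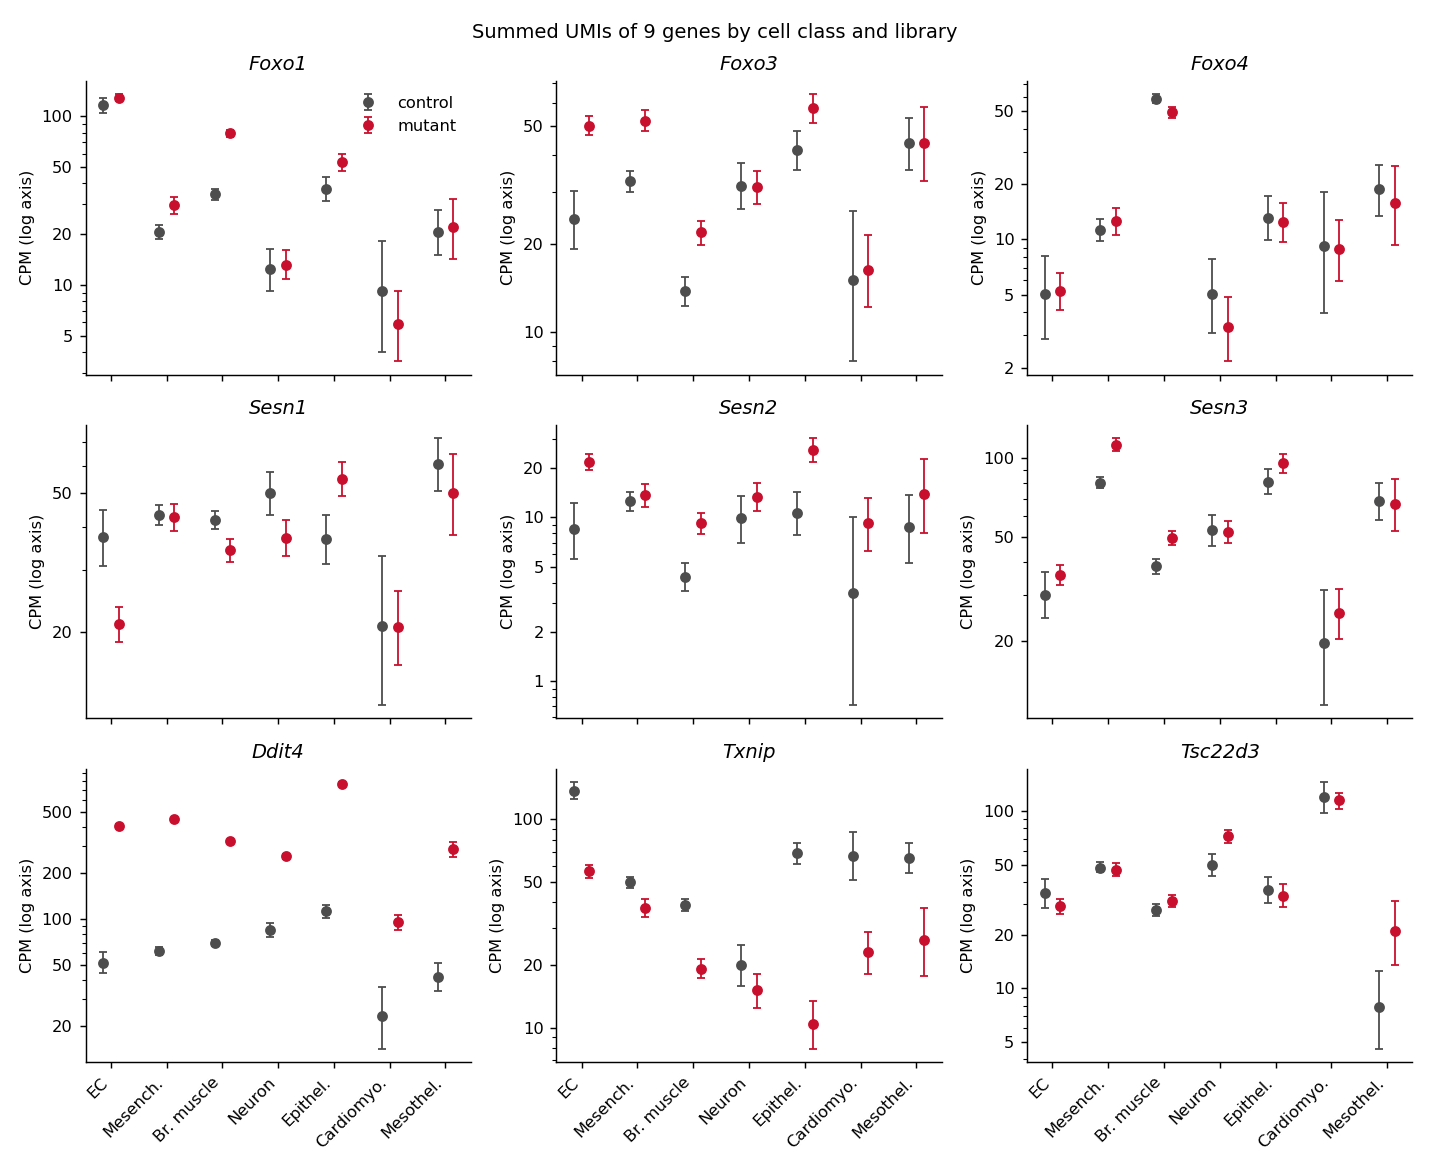
Levels of the 9 genes (CPM, log axis) in 7 cell classes of the control library (grey) and the mutant library (red). Points are summed UMIs, and bars are exact Poisson 95% intervals for counting error. Ddit4 was higher in the mutant in every class shown, from 51.8 to 405 CPM in EC-like cells, and Txnip was lower, from 137 to 56.4 CPM in EC-like cells.

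Txnip went the other way. Control EC-like cells held 137 CPM (125 to 151), the highest level of any class, and mutant EC-like cells 56.4 CPM (52.5 to 60.5), with no overlap and a log2 ratio of -1.28 (-1.45 to -1.11). The largest difference was in epithelium-like cells, where 282 control UMIs (68.7 CPM) stood against 58 mutant UMIs (10.4 CPM) and the log2 ratio was -2.72 (-3.15 to -2.31). The control level there overlapped those of cardiomyocyte-like and mesothelium-like cells, and the mutant level was beside that of neuron-like cells. Txnip was at 39.0 and 19.2 CPM in branchial muscle-like cells, 67.0 and 23.1 CPM in cardiomyocyte-like cells, and 65.3 and 26.3 CPM in mesothelium-like cells. Mesenchyme-like cells differed less, with 49.8 and 37.7 CPM and a log2 ratio of -0.40 (-0.57 to -0.23), and their clusters were unlike each other: -0.77 (-0.96 to -0.57) in the larger and 0.13 (-0.23 to 0.49) in the smaller. Neuron-like cells, with 79 control and 118 mutant UMIs, had a log2 ratio of -0.41 and an interval that included 0 (-0.83 to 0.02). Their larger cluster had -0.87 (-1.43 to -0.31) and their smaller 0.25 (-0.43 to 0.96). In all, the interval was below 0 in 6 of 7 classes. Gm15441 overlaps Txnip on the opposite strand, and the strand setting of the counting was not given in the sources used here, so reads of the pair cannot be told apart. Gm15441 itself had 9 and 36 UMIs in EC-like cells.

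Foxo1, which is required in endothelium for vessel formation, had its highest class level in EC-like cells of both libraries, at 116 CPM (105 to 129) in the control and 128 CPM (123 to 135) in the mutant. Single clusters reached as far: a branchial muscle-like cluster of 195 control and 136 mutant cells had 65.5 and 154 CPM (141 to 169 in the mutant), and the neural crest-like cluster had 110 and 124 CPM. The intervals of the EC-like cells overlapped, and the log2 ratio of 0.14 (-0.02 to 0.31) included 0. The class with a large difference was branchial muscle, the precursors of jaw and facial muscle, where Foxo1 was at 34.4 CPM (32.0 to 36.8) in the control and 79.4 CPM (75.5 to 83.5) in the mutant. The log2 ratio was 1.21 (1.09 to 1.33), and each of the 3 branchial muscle-like clusters had one between 0.95 and 1.33. Foxo1 was also higher in mesenchyme-like cells, at 20.6 and 29.7 CPM, and in epithelium-like cells, at 37.0 and 53.4 CPM, both with a log2 ratio of 0.53. Neuron-like, cardiomyocyte-like and mesothelium-like cells had 5.84 to 21.9 CPM, and their intervals of the ratio included 0.

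Foxo3 was at 24.2 CPM (19.1 to 30.2) in control EC-like cells and at 50.1 CPM (46.5 to 54.0) in mutant EC-like cells, a log2 ratio of 1.05 (0.71 to 1.41). Mesenchyme-like cells had 32.5 and 52.2 CPM, branchial muscle-like cells 13.8 and 21.8 CPM, and epithelium-like cells 41.4 and 57.4 CPM, with log2 ratios of 0.68, 0.66 and 0.47 and intervals above 0. In mesothelium-like cells (43.7 and 43.9 CPM) the levels lay side by side. Neuron-like cells had 31.4 and 31.0 CPM, but their 2 clusters went opposite ways, with log2 ratios of -0.43 (-0.83 to -0.03) in the larger and 0.67 (0.11 to 1.25) in the smaller. Foxo4, an X-linked member of the family, was a branchial muscle gene in these data: it was at 58.5 and 49.2 CPM there and between 3.33 and 18.9 CPM elsewhere. Its log2 ratio in branchial muscle-like cells was -0.25 (-0.37 to -0.13), and in the other 6 classes the interval included 0, with 16 and 73 UMIs in EC-like cells. Among female-like cells of both libraries, the Foxo4 interval was below 0 in 0 of 7 classes and above 0 in 0 of 7, branchial muscle-like cells included. The FOXO factors thus had different levels by class, and none of the 3 was lower by 1.5-fold in mutant EC-like cells.

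Among the sestrins, Sesn2, which responds to ATF4 and p53, was at 8.47 CPM (5.58 to 12.3) in control EC-like cells and 21.9 CPM (19.5 to 24.5) in mutant EC-like cells. Its log2 ratio was 1.37 (0.80 to 1.99) there, 1.27 (0.78 to 1.79) in epithelium-like cells and 1.09 (0.73 to 1.45) in branchial muscle-like cells. Cardiomyocyte-like and mesothelium-like cells were past 1.5-fold as well, but on 3 and 19 control UMIs, and their intervals included 0. Mesenchyme-like cells, at 12.6 and 13.7 CPM, did not differ beyond counting error as a class, but the ratio was 0.49 (0.10 to 0.88) in the larger cluster (593 control and 526 mutant cells) and -0.47 (-1.07 to 0.10) in the smaller (362 and 130 cells). Sesn1 ran against Sesn2 in EC-like cells, with 37.4 CPM (30.9 to 44.7) in the control and 21.1 CPM (18.7 to 23.6) in the mutant, a log2 ratio of -0.83 (-1.14 to -0.51). It was also lower in neuron-like cells, at 50.1 and 37.2 CPM, and in branchial muscle-like cells, at 41.9 and 34.3 CPM. In epithelium-like cells it was higher, at 37.0 and 55.0 CPM, with a log2 ratio of 0.57 (0.29 to 0.86). Sesn3 was highest in mesenchyme-like and epithelium-like cells. Its interval was above 0 in 3 of 7 classes, with 0 classes past 1.5-fold. Mesenchyme-like cells had 80.5 and 112 CPM, the largest log2 ratio at 0.48 (0.37 to 0.59). Their larger and smaller clusters had 0.35 (0.22 to 0.48) and 0.39 (0.17 to 0.62), both below the class value. The clusters made up different shares of the class in each library. In mesenchyme-like cells the class ratios of Ddit4, Foxo1 and Foxo3 also exceeded those of both clusters. For Sesn3, EC-like cells had 30.1 and 35.9 CPM with an interval that included 0.

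Tsc22d3, also X-linked, was at 34.5 CPM (28.4 to 41.6) in control and 29.1 CPM (26.4 to 32.1) in mutant EC-like cells, and the intervals overlapped. Its highest class was cardiomyocyte-like cells, at 120 and 115 CPM. Neuron-like cells had 49.9 and 72.3 CPM, a log2 ratio of 0.54 (0.30 to 0.78). Mesothelium-like cells had a larger ratio of 1.43 (0.47 to 2.42), on 17 and 24 UMIs and with median depths of 28114 and 14430 UMIs per cell. Thinned to the same depth per cell, this ratio was 0.11. Mesenchyme-like cells had a ratio of -0.04 as a class, but their clusters went opposite ways. The ratio was 0.34 (0.13 to 0.55) in the larger cluster and -0.40 (-0.68 to -0.13) in the smaller.

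**Figure D2:**
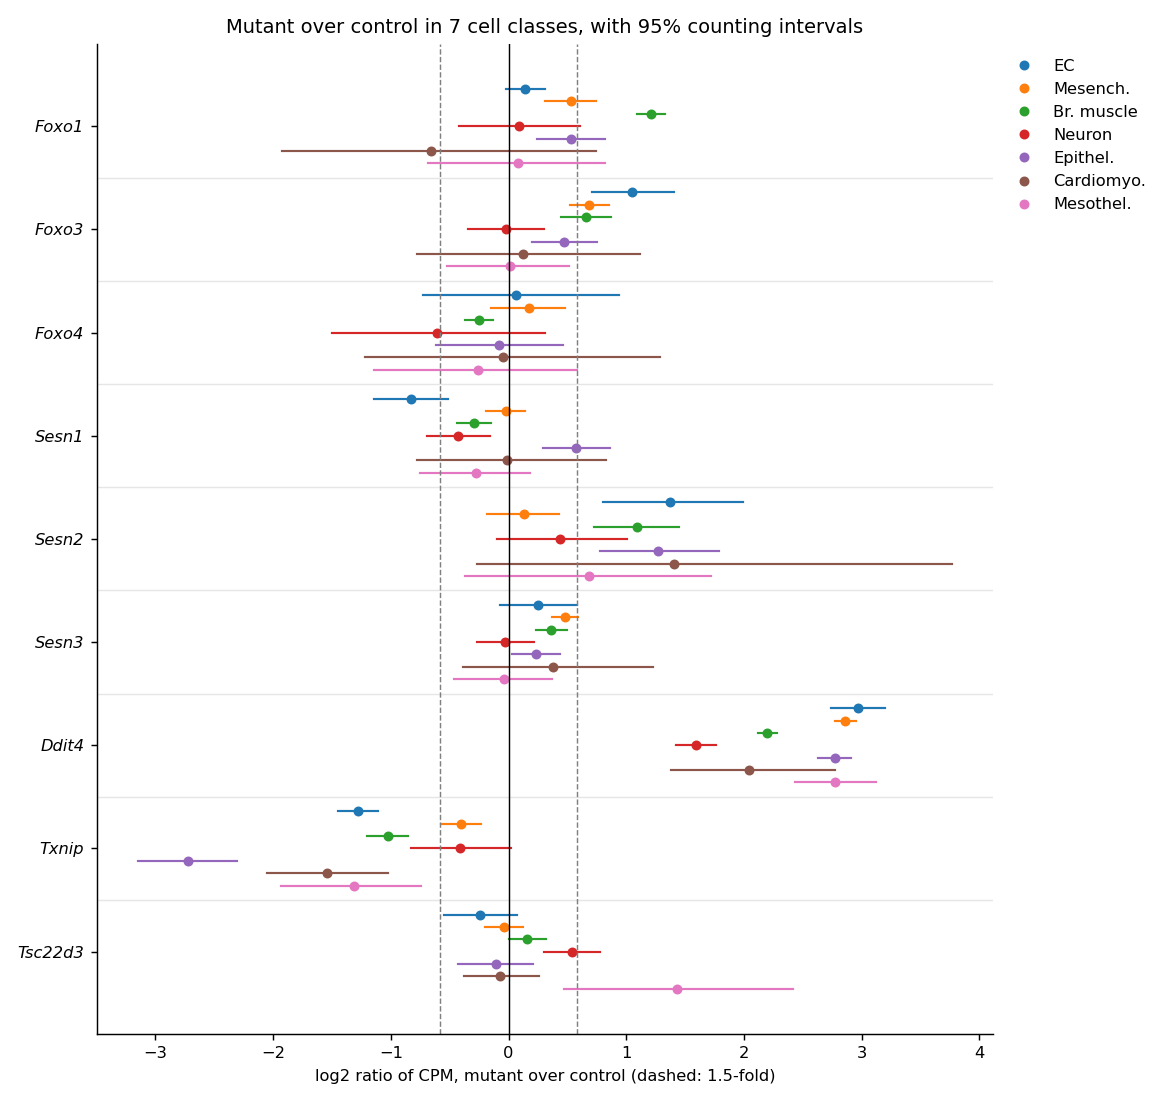
Log2 ratio of CPM, mutant over control, for the 9 genes in 7 cell classes. Points are ratios, lines are conditional exact binomial 95% intervals for counting error, and dashed lines mark 1.5-fold. Ddit4 lay right of 0 in all 7 classes (1.59 to 2.97), Txnip left of 0 (-2.72 to -0.40), and Sesn1 on both sides (-0.83 to 0.57).

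Read class by class, the counts differed from the share over all genes in some classes and lay near it in others. In branchial muscle-like cells 4 of the 9 genes were at least 1.5-fold higher and 1 lower, where 8.01% and 5.86% of all genes were. Mesenchyme-like cells had 2 higher and 0 lower, against 7.85% and 6.38%, and epithelium-like cells had 2 higher and 1 lower, against 8.05% and 9.74%. Neuron-like cells had 1 higher and 0 lower among the 8 genes that passed 5 CPM, Foxo4 being below it, against 5.12% and 15.5%. In cardiomyocyte-like cells, with 2 higher and 2 lower, 12.1% and 23.7% of all genes were past the same fold, and in mesothelium-like cells, with 3 higher and 1 lower, 24.2% of all genes were higher and 1585 of 11328 were lower, so those counts carry less.

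Within the EC-like cells, finer clustering gave 3 groups. The largest, led by Fabp4, Kcne3 and Aplnr (104 control and 519 mutant cells), had log2 ratios of 3.17 (2.92 to 3.44) for Ddit4, 1.27 (0.85 to 1.71) for Foxo3, 1.61 (0.95 to 2.34) for Sesn2 and -1.36 (-1.56 to -1.16) for Txnip. A group led by Bmx, Gja4 and Gkn3, genes of arterial endothelium (38 and 147 cells), had smaller ones: Ddit4 was at 65.1 and 156 CPM, a log2 ratio of 1.26 (0.81 to 1.73), and Txnip had -0.90 (-1.24 to -0.55). There Foxo3 and Sesn2 had intervals that included 0 (-0.96 to 0.47 and -1.51 to 0.48). This group had 12 of the 14 EC markers raised and 18.2% of the mesenchyme markers, where the largest group had 14 and 0%. The EC-like class held 146 control and 698 mutant cells at the coarser setting and 161 and 757 at the finer. Some cells thus changed class between settings, and which EC-like group they joined was not traced. The last group, led by Tll1, Cyyr1 and Itga2 and including Flt4 among its leading genes (19 and 91 cells), had Foxo1 at 160 and 309 CPM, a log2 ratio of 0.95 (0.44 to 1.49), and Ddit4 at 13.3 and 311 CPM, the former on 3 UMIs. Foxo1 in the other groups was at 104 and 112 CPM and at 104 and 94.5 CPM. Its cells were shallower, with medians of 10126 and 7896 UMIs.

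The comparison was repeated on female-like cells of both libraries, 131 control and 233 mutant EC-like cells. Ddit4 was at 51.1 and 326 CPM, Txnip at 139 and 64.7 CPM, Sesn1 at 38.9 and 21.2 CPM, Sesn2 at 8.18 and 17.6 CPM and Foxo3 at 23.9 and 38.5 CPM. The log2 ratios of these 5 genes stayed past 1.5-fold in the same direction, at 2.67, -1.10, -0.88, 1.10 and 0.69. Over 7 classes, Ddit4 stayed at least 1.5-fold higher in 7 of 7, with its interval including 0 in cardiomyocyte-like cells (11 and 12 cells). Its ratio was smaller than in all cells, however: 2.23 in place of 2.86 in mesenchyme-like cells, 1.49 in place of 2.20 in branchial muscle-like cells and 2.27 in place of 2.77 in epithelium-like cells. Foxo1 in branchial muscle-like cells stayed at 1.10 (0.94 to 1.26), and Sesn2 there was at 0.63 (0.10 to 1.14) in place of 1.09. Foxo3 was at 0.32 (0.03 to 0.61) in mesenchyme-like cells, in place of 0.68. The intervals came to include 0 for Foxo3 in branchial muscle-like cells, 0.22 (-0.10 to 0.53), for Foxo1 and Foxo3 in epithelium-like cells, -0.22 (-0.68 to 0.21) and -0.11 (-0.52 to 0.29), and for Txnip in mesenchyme-like cells, -0.08 (-0.35 to 0.17), among other values that moved.

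Within the mutant library, male-like cells had more Ddit4 than female-like cells in 7 of 7 classes, by log2 ratios between 0.49 and 1.30. In EC-like cells the levels were 326 CPM in female-like and 457 CPM in male-like cells, and in epithelium-like cells 537 and 968 CPM. Foxo3 was higher in male-like cells in 4 of 7 classes, with 38.5 and 59.2 CPM in EC-like cells. Txnip was lower in 3 classes and higher in 1, epithelium-like cells, where the log2 ratio of male-like over female-like cells was 1.05 (0.11 to 2.08). Foxo1 had intervals above 0 in 3 classes and below 0 in 1, with ratios from -0.74 to 1.19 over the classes. Tsc22d3 was above 0 in 1 and below in 2 classes, and Sesn3 above in 1 and below in 1. Sesn2 was above 0 in 2 of 6 classes, Sesn1 in 1 of 7 and Foxo4 in 0 of 7, with 0 below for each. Male-like and female-like mutant cells come from different embryos of the pool, so sex and embryo cannot be told apart.

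**Figure D3:**
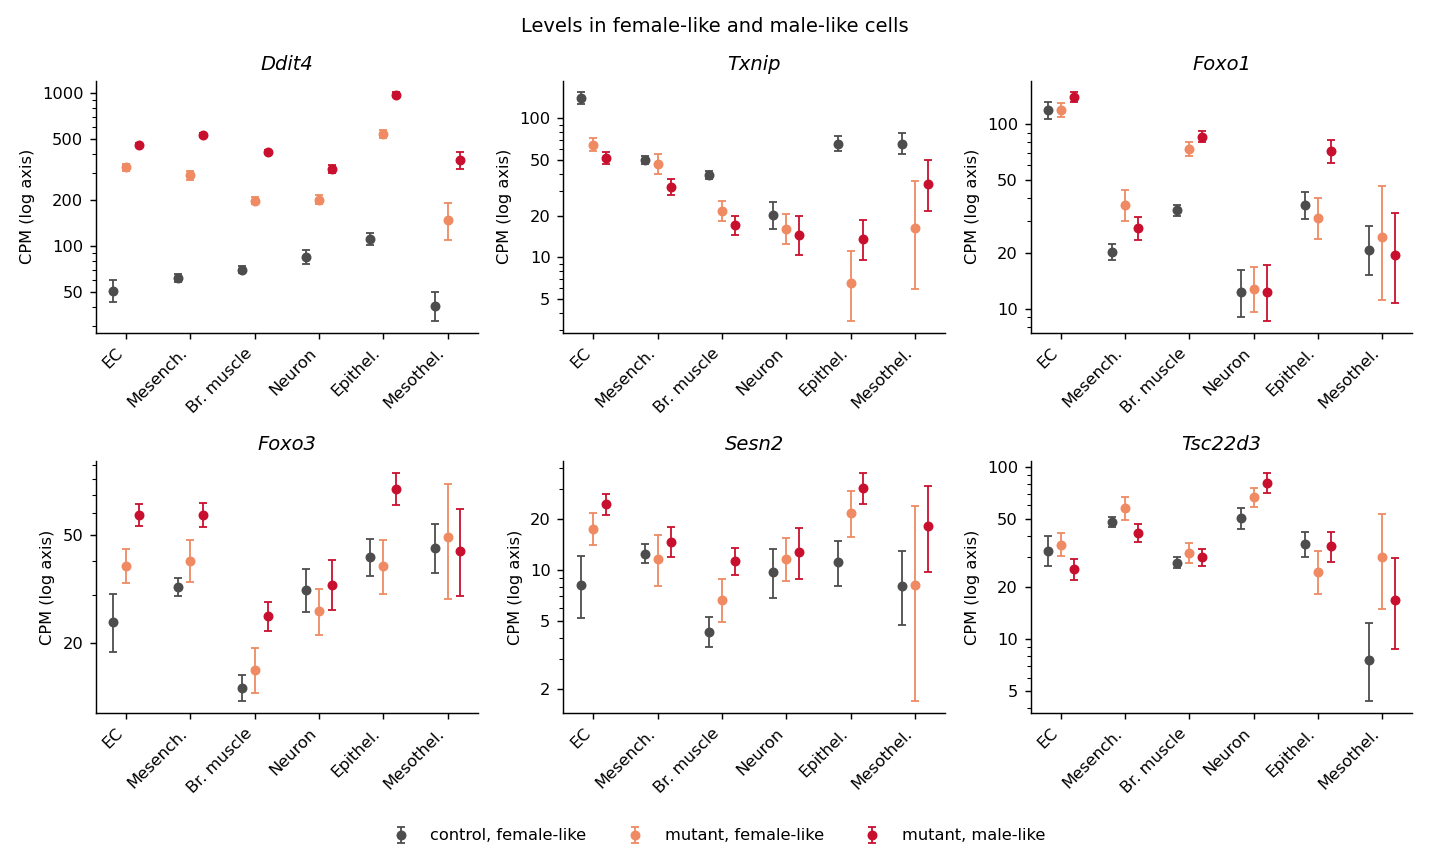
Levels of 6 genes (CPM, log axis) in female-like control cells (grey), female-like mutant cells (orange) and male-like mutant cells (red) of 6 classes, with exact Poisson 95% intervals. Cardiomyocyte-like cells are left out because 11 control cells were female-like. Ddit4 in EC-like cells was at 51.1, 326 and 457 CPM in the 3 groups.

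Genes induced by low oxygen moved with Ddit4. A list of 16 hypoxia-induced genes held none of the 9. In EC-like cells 16 of 16 were at least 1.5-fold higher, where 8.64% of all genes were. The list's median log2 ratio was 2.20 against -0.09 over all genes. The list was chosen with earlier results of these data known. The study had already reported some of its genes, among them Vegfa, Adm and Slc2a1, as raised in these mutant ECs, so the count is not an independent finding. Adm, a vasodilator peptide, and Bnip3, a mitophagy receptor, had log2 ratios of 4.57 and 4.54. The list's median lay between 0.90 and 2.31 over the 7 classes. To see whether Ddit4 and the list shared cells, every cell was thinned to 5000 UMIs and the UMIs of the list were summed. Across the 666 mutant EC-like cells, Ddit4 followed this sum with a Spearman rho of 0.52, and across mutant mesenchyme-like, branchial muscle-like and epithelium-like cells with 0.57, 0.52 and 0.60. Neuron-like and cardiomyocyte-like mutant cells gave 0.29 and 0.24, mesothelium-like mutant cells 0.39, and control cells between -0.03 and 0.14 in the 6 classes with enough Ddit4 to compute it. Control cells of these classes held 0.210 to 0.512 Ddit4 UMIs on average after thinning, against 1.93 in mutant EC-like cells. Their hypoxia sums were also narrow, with outer quartiles of 2 and 4 in control EC-like cells. A low rho in control cells thus does not show that the link was absent there. These are descriptions over cells of 1 library each. The mutant library pooled 3 embryos, and Ddit4 differed between male-like and female-like mutant cells. The rho values, and the quartiles below, can thus mix differences between embryos with differences between cells, and were not split by sex. Nor were they split by EC-like group, and the groups differed in level. Mutant Foxo3 was at 47.5 CPM in the largest group, 27.6 CPM in the Bmx group and 142 CPM in the Tll1 group.

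Split into quartiles of the sum, mutant EC-like cells had 1.18, 2.43, 3.69 and 8.35 Ddit4 UMIs per 10000, each interval above the one before. Foxo3 went with the sum as well, from 0.242 in the lowest to 1.24 in the highest quartile, where the control mean was 0.252. Txnip did not: it was at 0.648, 0.600, 0.478 and 0.448, with overlapping intervals, against 1.30 in the control. Foxo1 in EC-like cells ran from 1.16 to 1.66 and Sesn1 from 0.275 to 0.194 between the lowest and highest quartiles, and for both genes the intervals of these quartiles overlapped. For Foxo1 in EC-like cells this overlap was only from 1.39 to 1.41, and its Spearman rho with the sum was 0.12. In mutant branchial muscle-like cells Foxo1 was at 0.761 (0.622 to 0.921) in the lowest and 1.56 (1.32 to 1.83) in the highest quartile, with a rho of 0.17. Epithelium-like cells had 0.553 (0.342 to 0.845), 0.435, 0.371 and 1.22 (0.888 to 1.64), so the level rose in the highest quartile alone, and the rho was 0.09.

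**Figure D4:**
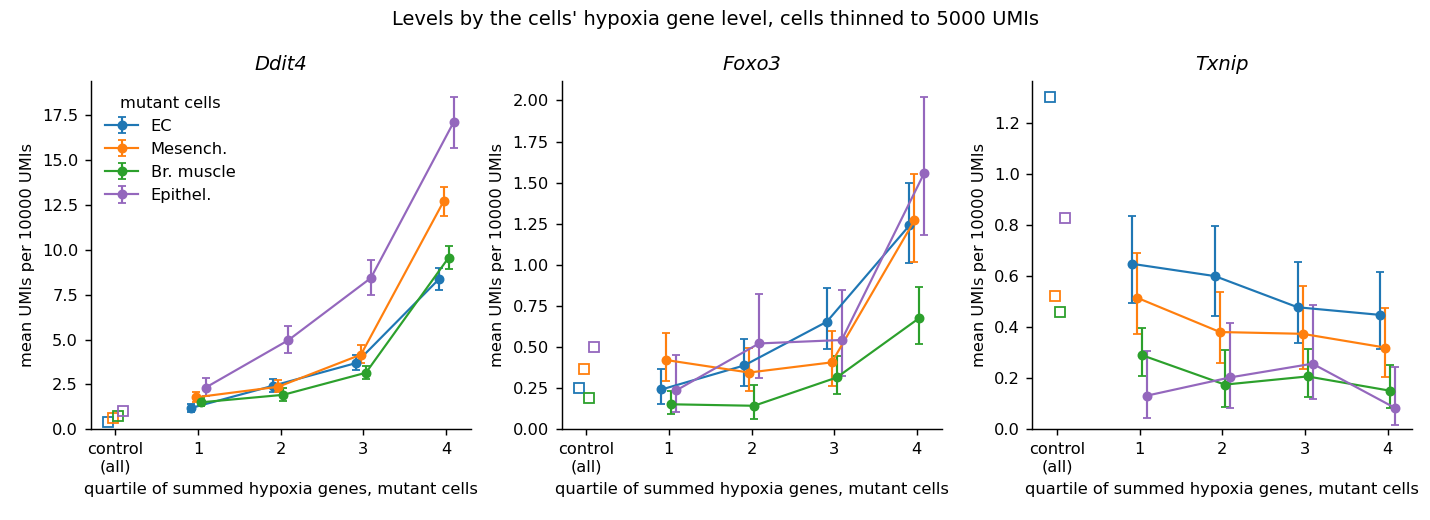
Mean UMIs per 10000 UMIs of Ddit4, Foxo3 and Txnip in mutant cells split into quartiles by summed hypoxia genes (1 lowest, 4 highest), in 4 cell classes, with exact Poisson 95% intervals. Open squares are the means of all control cells of the class. Ddit4 in EC-like cells ran from 1.18 to 8.35 and Foxo3 from 0.242 to 1.24, while Txnip, at 0.648 to 0.448, lay below the control mean of 1.30 in every quartile.

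The lowest quartile allowed a comparison near the control range, chosen after the values were seen. Cells with at most 5 UMIs of the list were 90.9% of control and 27.3% of mutant EC-like cells (130 and 182 cells), with mean sums of 2.57 and 2.96. Among them Ddit4 was at 0.338 and 1.18 per 10000, a log2 ratio of 1.80 (1.12 to 2.53), and Txnip at 1.26 and 0.648, a log2 ratio of -0.96 (-1.47 to -0.46). Foxo3, at 0.215 and 0.242, had a ratio of 0.17 (-0.86 to 1.25), on 14 and 22 UMIs. The intervals also included 0 for Sesn1, at -0.65 (-1.49 to 0.18), and for Sesn2, at 1.00 (-0.55 to 2.83) on 5 and 14 UMIs. Sesn3, at 0.262 and 0.593, had a ratio of 1.18 (0.37 to 2.06), on 17 and 54 UMIs. Within the EC-like groups of the finer clustering its ratios were 0.32, 0.22 and 0.47, all with intervals that included 0. The group led by Bmx had 57.9 and 67.2 CPM of Sesn3, and the largest group 23.3 and 29.1 CPM. The share of each group among the cells kept here was not traced. In mesenchyme-like, branchial muscle-like, neuron-like and epithelium-like cells treated the same way, Ddit4 had log2 ratios of 1.52, 1.03, 1.02 and 0.75, all with intervals above 0. Cardiomyocyte-like cells had 1.77 (-0.05 to 4.20), and mesothelium-like cells were too few. Txnip had intervals below 0 in branchial muscle-like (-0.75) and epithelium-like cells (-2.65, on 4 mutant UMIs). Its intervals included 0 in mesenchyme-like (-0.15), neuron-like (-0.51) and cardiomyocyte-like cells (-1.14). Foxo1 in branchial muscle-like cells had 0.78 (0.44 to 1.12). Foxo3 had intervals that included 0 in mesenchyme-like and branchial muscle-like cells and lay below 0 in epithelium-like cells, on 2 mutant UMIs, and in neuron-like cells. Control and mutant mean sums were 2.53 and 2.96 in mesenchyme-like and 2.17 and 3.05 in branchial muscle-like cells. They were 2.15 and 2.89 in neuron-like and 2.89 and 3.59 in epithelium-like cells. The sum is a noisy count and the limit kept a larger share of control cells, so hypoxia gene levels were not fully matched. The part of hypoxia in the remaining ratios was not tested.

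The genes around the 9 were examined through further lists in EC-like cells. Of 25 known FOXO target genes, 16 passed 5 CPM, 5 were at least 1.5-fold higher and 0 lower, where 8.64% and 12.7% of all genes were, and the median log2 ratio was -0.01 beside -0.09 over all genes. The 5 were Cited2, a transcriptional coregulator that is also induced by hypoxia (32.0 and 113 CPM), the cyclin Ccng2 (38.0 and 72.4 CPM), the sphingosine phosphate receptor S1pr1 (97.0 and 178 CPM), the cell-cycle inhibitor Cdkn1b (35.5 and 60.1 CPM) and Klf6 (133 and 215 CPM). The last 3 are named here after their values were seen. Which of the 5 besides Cited2 respond to hypoxia was not examined, and the part of hypoxia in their values was not tested. At the other end stood Pink1 and the insulin receptor Insr, at -0.56 and -0.55. Target genes of classic FOXO assays such as Bcl2l11 (42.4 and 41.1 CPM) and Cat (70.3 and 69.9 CPM), also named afterwards, had intervals that included 0.

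Over all genes of the EC-like cells, 8.64% were at least 1.5-fold higher and 12.7% lower, with a median of -0.09. Upstream, a list of 15 genes named for AKT and its regulators had 0 higher, 3 lower and a median of -0.37. Sgk3 was at -1.23, Thada at -0.87 and Sgk1 at 0.39. These named genes are not AKT genes or established AKT regulators, so the counts are not counts of AKT regulators. The remaining lower gene, named afterwards, was Inpp4b at -0.82, and Akt1, also named afterwards, was at -0.54 (-0.69 to -0.39). The YWHA adaptors that hold FOXO proteins had 6 genes above the limit and 0 past 1.5-fold, between -0.17 (Ywhah) and 0.13 (Ywhag). Of 16 genes of the mTORC1 core and its activators, 1 was higher, the Rag GTPase Rragd at 1.17 (0.27 to 2.21) on 11 control UMIs, and 2 were lower, Mtor at -0.63 and Mlst8 at -0.74. Of 15 genes on a list named for other mTORC1 brakes, 3 were higher and 2 lower, with a median of -0.13. The list also held mTORC1 substrates (Eif4ebp1 and Eif4ebp2) and Rag GTPase regulators (Flcn and Fnip1), so these are not counts of brakes. Higher were the translation repressor Eif4ebp1 (113 and 276 CPM), Flcn (8.79 and 18.1 CPM) and, named afterwards, Fnip1 (39.9 and 62.4 CPM). Lower were Eif4ebp2 (77.8 and 45.5 CPM) and Deptor (6.28 and 3.96 CPM), the latter with an interval of the log2 ratio that included 0 (-1.43 to 0.15). Tsc1, Tsc2, Depdc5, Nprl2 and Nprl3, also named afterwards, had log2 ratios between -0.58 and 0.02. Their intervals were below 0 for Depdc5 at -0.58 (-0.91 to -0.24), Tsc2 at -0.50 (-0.91 to -0.08) and Nprl3 at -0.48 (-0.83 to -0.13). They included 0 for Tsc1 and Nprl2. Eif4ebp1 and Eif4ebp2 thus went in opposite directions, as Sesn2 and Sesn1 did. The counts of lower genes in the mTORC1 core list and in the list named for other brakes lay near the share over all genes.

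Lists for the known inducers of the 9 genes were read beside them. The shares over all genes, 8.64% higher and 12.7% lower, and the median of -0.09 stand beside each of these lists too. ATF4 target genes had 9 of 14 higher, 0 lower and a median of 0.89, led by the pseudokinase Trib3 at 3.15 and Vldlr at 2.89. The p53 targets had 4 of 12 higher and 0 lower, with a median of 0.42, led by Cdkn1a at 20.1 and 101 CPM, with Phlda3, Zmat3 and Fas each at 0.64, Fas on 15 control UMIs, and Ei24 lowest at -0.12. Of the partners and relatives of Txnip, 8 genes passed with 1 higher, 1 lower and a median of 0.06, and the arrestins differed: Arrdc3 was at 29.5 and 70.1 CPM and Arrdc4, like Txnip a known MondoA target, at 13.2 and 8.78 CPM. The MondoA gene Mlxip and its partner Mlx were at -0.25 and 0.36. Glucocorticoid response genes, read for Tsc22d3, had 4 of 9 higher and 1 lower with a median of 0.46; Mt1, at 6.28 and 61.3 CPM, and Mt2, on 2 control UMIs, are metallothioneins that metals also induce, and the receptor gene Nr3c1 was lower, at 57.8 and 30.1 CPM. The other 3 TSC22 family genes had a median of -0.15 and 0 past 1.5-fold, from -0.34 (Tsc22d1) to 0.14 (Tsc22d4). A list of 13 dissociation and immediate early genes had 4 higher and 0 lower with a median of 0.14. Its 4, named afterwards, were the heat shock genes Hspa1a (19.1 and 528 CPM), Hspa1b (log2 ratio 5.16) and Hspb1 (31.7 and 142 CPM) and the stress factor Atf3 (56.2 and 155 CPM), while Fos was at 334 and 289 CPM. Hspa1a and Hspa1b are near-identical copies whose separate counts are uncertain. The study had already reported both as raised in these mutant ECs and possibly linked to Hif stabilization. It had also reported Atf4 itself as raised there. The heat shock and ATF4 target values are thus not independent findings. The part of hypoxia, ATF4 or heat shock genes in the values of the 9 genes was not tested.

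**Figure D5:**
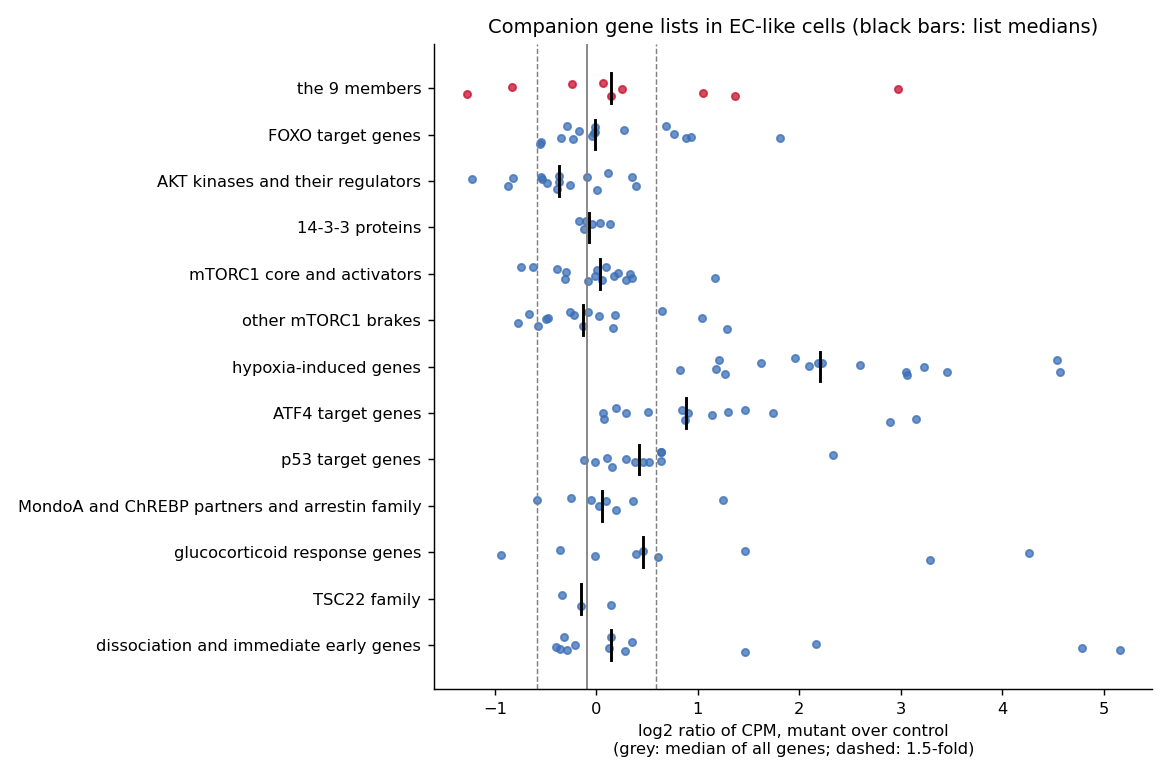
Log2 ratio of CPM in EC-like cells, mutant over control, for the 9 genes (red) and the genes of 12 further lists (blue) with a mean of at least 5 CPM. Black bars are medians, the grey line is the median of all genes (-0.09), and dashed lines mark 1.5-fold. The hypoxia list lies farthest right with a median of 2.20, and the FOXO target list has a median of -0.01.

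Genes whose levels followed each of the 9 most closely were sought over the 14 sums of 7 classes and 2 libraries among 7965 genes, by Pearson's r of log2(CPM + 5). For Ddit4 they were the NAD synthesis enzyme Nampt (0.95), the glycolytic regulator Pfkfb3 (0.93) and the glucose transporter Slc2a3 (0.92). Sesn2 had Tiparp (0.84), Pfkfb3 (0.83) and Ero1l (0.83). Foxo1 had Lrp5 (0.92), Tbx1 (0.90) and Lbr (0.90), and Foxo3 had Lrif1 (0.91), Sema3f (0.90) and H1f0 (0.89). Foxo4, the branchial muscle gene, had Fbxo17 (0.92), Ccne1 (0.92) and the cell-cycle inhibitor Cdkn1c (0.89). Sesn1 had Plxnb2 (0.92), Bnc2 (0.89) and Rab11fip2 (0.88), and Sesn3 had the chondrogenic factor Sox9 (0.95), Ift74 (0.93) and Papss1 (0.93). Txnip had weaker neighbours, Rnaset2a (0.84), Fam111a (0.82) and Marc2 (0.81), and Tsc22d3 had Mcts2 (0.90), Mpi (0.90) and Tbc1d7 (0.89). The 14 points share 2 libraries and are not independent.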

How the data were processed

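The authors aligned the reads to mm10 (GRCm38) with Cell Ranger 7.1.0, per the labels, and deposited raw UMI counts per gene and cell for each library. Whether intronic reads were counted, and on which strand, is not given in the sources used here. Cells with 2001 to 8999 genes and under 10% mitochondrial UMIs were kept, after the study's filter, which left 63153191 control and 69717583 mutant UMIs. Canonical correlation anchors in Seurat 5.3.0, run in R 4.3.3, joined both libraries, with cell-cycle regression, on 2000 variable genes without the 9 genes and the companion lists, using 30 components, 20 neighbours and resolution 0.3, which gave 15 clusters. A cluster was called X-like where at least 3 of a class's markers were raised by a log2 of 1 and the list led clearly over the next. Names are rebuilt and may differ from the study's. Doublets were kept, and removing the highest Scrublet scores (scanpy 1.11.5; 77 control and 124 mutant cells) was an alternative.

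A class's UMIs in a library were added up for each gene and scaled to 1000000 UMIs (CPM). Because each genotype was 1 library, no test was made. Intervals are 95% exact Poisson intervals for levels and conditional exact binomial intervals for ratios, and cover counting error only. Genes with a mean of at least 5 CPM over both libraries of a class entered counts past 1.5-fold. Cells were thinned to 5000 UMIs for values over single cells, which left out 61 control and 173 mutant cells. Cells with UMIs of Xist but none of the Y-linked genes Ddx3y, Eif2s3y, Kdm5d and Uty were termed female-like, and those with the reverse male-like. The intervals were checked on simulated counts with Poisson error only, the error that the intervals assume. The check therefore says nothing about added spread between cells, which the intervals also leave out.

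The 9 genes, the 12 companion lists (165 entries, some in more than 1 list: Trp53inp1, Sgk1, Dusp1 and Atf3) and the markers were chosen with earlier results of these data known. All 9 genes are named. Of each list the 2 largest rises and falls in EC-like cells are named, and of the whole table the 3 genes most like each of the 9 among genes with a mean of at least 20 CPM. Alternatives were TMM scaling (edgeR 4.0.16), median-ratio scaling, resolution 0.8, no integration, classes from marker counts, wider cell limits, a mitochondrial limit of 5%, doublet removal, means over cells, thinned cells, female-like cells and G1 cells. Python 3.11.15 was used with matplotlib 3.10.9, pandas 2.3.3, scipy 1.17.1 and numpy 2.4.6. The promoters were credited to RefSeq, and gene positions are those of GENCODE on GRCm38.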

Additional observations from a re-analysis of the deposited data

Results flagged for a closer look

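Sesn1 lay on opposite sides of 0 in different cell classes of the same 2 libraries. Its log2 ratio, mutant over control, was 0.57 in epithelium-like cells, with its counting interval above 0, and -0.83 in EC-like, -0.43 in neuron-like and -0.29 in branchial muscle-like cells, with intervals below 0. With 1 library per genotype this difference between classes was not tested.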

How the results depend on the processing

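No paired analysis was possible because each genotype was 1 library. TMM scaling shifted all ratios of a class by 0.12 in EC-like, 0.11 in neuron-like, 0.15 in cardiomyocyte-like and -0.12 in mesothelium-like cells. Across 12 alternative settings, the log2 ratios of Ddit4, Foxo3, Sesn1, Sesn2, Txnip and Foxo1 in EC-like cells kept their sign, which for Foxo1 did not hold in cells with at most 5 hypoxia UMIs. In female-like cells the ratio in EC-like cells was 2.67 for Ddit4, 0.69 for Foxo3, -1.10 for Txnip and 0.11 for Tsc22d3, and in G1 cells it was 2.65 for Ddit4, 1.58 for Foxo3, -1.48 for Txnip, -0.11 for Sesn3 and -0.74 for Tsc22d3. Thinned cells gave -0.77 for Tsc22d3. With a mean over cells or a limit of 2-fold, 1 of the 9 genes was lower in EC-like cells in place of 2, and in female-like cells Sesn2 was at least 1.5-fold higher in 3 classes in place of 5. The medians of lists that moved were those of the YWHA adaptors (0.04 with TMM, 0.03 with median-ratio scaling, -0.16 with a mean over cells and -0.16 in G1 cells), hypoxia genes (2.51 thinned, 2.74 in G1), ATF4 targets (0.51 in female-like cells), the TSC22 family (0.14 thinned) and dissociation genes (0.54 in female-like cells). In cells with at most 5 hypoxia UMIs, a choice made after seeing the data, the ratios were -0.04 for Foxo1, 0.17 for Foxo3, 0.97 for Foxo4, 1.18 for Sesn3, 1.80 for Ddit4, -0.96 for Txnip and -0.56 for Tsc22d3. Of the ratios in other classes, 1 reversed: Foxo4 in neuron-like cells, on 20 control UMIs, was 1.52 in thinned cells. Another 69 moved beyond their counting interval and 576 did not. Depth limits Foxo4, Sesn2 and the small cardiomyocyte-like and mesothelium-like classes.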
